A study of Mus musculus with 8 samples.

Results

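The Paneth cell granule genes are 8 of the 54532 genes in the count table: Lyz1, Mmp7, Itln1, Ang4, Pnliprp2, Defa17, Defa24 and Defa30. They are listed by name, as genes whose products are stored in the secretory granules of Paneth cells. All 8 had counts in every library and passed the filter on low counts. The libraries came from the intestinal epithelium of mice at lactation day 5, with 4 WT and 4 Rank-knockout animals, each animal giving 1 library. Rank, the receptor for the cytokine RANKL (gene symbol Tnfrsf11a), was deleted per the study's methods with a Cre driven by the villin promoter, which is active throughout the intestinal epithelium, Paneth cells included. Both genotypes were female littermates on a C57BL/6J background mated to wild-type males, and the labels give no treatment. Animals were age-matched per the study's methods, which give a wide range of weeks for the study as a whole. The age of these animals, whether WT animals carried Cre, and the intestinal segment are not given in the sources used here. Cells were loosened with a dissociation reagent and passed through a strainer, so other cells of the mucosa could be carried along.

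Paneth cells sit at the base of the small intestinal crypts, between the stem cells, and release granules of antimicrobial proteins into the lumen. Lyz1 encodes lysozyme, which cuts bacterial cell walls, and the alpha-defensins (Defa genes) are small cationic peptides that disrupt microbial membranes. Mmp7 encodes matrilysin, the metalloprotease that cuts mouse pro-alpha-defensins into their active form. Itln1 encodes an intelectin that binds microbial sugars, Ang4 an angiogenin-family ribonuclease with bactericidal activity, and Pnliprp2 a lipase related to pancreatic lipase. Stem cells give rise to Paneth cells under Wnt signalling, and Paneth cells in turn supply Wnt3 and other niche signals.

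Total counts ran from 1530781 to 4335653 per library, so the precision for genes with few counts differed between libraries. The targeted gene, Tnfrsf11a, lay between 41.7 and 77.4 CPM (CPM: counts scaled to a common library size, adjusted for composition by edgeR's TMM method) in WT and between 27.2 and 47.2 CPM in Rank-knockout, with overlapping ranges. It was lower in Rank-knockout (log2 fold change -0.67, SE 0.22; edgeR adjusted p = 0.0321), but did not pass when libraries were scaled by their totals (-0.48), or when replicate 1 or 4 of WT, or 1 or 3 of Rank-knockout, was dropped (-0.64 to -0.52). Its 3′ tags need not lie in the deleted part, so it does not check the labels. Epithelial markers were present in all 8 libraries, but not all at equal levels. Epcam was at 1779 to 2245 CPM in WT and 1384 to 1644 CPM in Rank-knockout (log2 fold change -0.45; edgeR adjusted p = 0.0241). Krt20 (-0.96) and Vil1 (-0.80) were also lower in Rank-knockout. Krt8 (-0.29) and Cdh1 (-0.025), the latter at 3910 to 5381 CPM over all libraries, were not called.

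All 8 granule genes had a positive log2 fold change (Rank-knockout minus WT), and 3 of them passed the test. Ang4, Itln1 and Mmp7 were higher in Rank-knockout, and no member was lower, at an edgeR adjusted p under 0.05. Over all 9855 genes tested, 15.8% were higher and 14.6% lower, 30.4% in either direction. The members' median log2 fold change was 1.17 and that of all genes tested was 0.02. Together the 8 genes took 0.353%, 0.463%, 0.215% and 0.215% of the counts in WT replicates 1 to 4, and 1.01%, 0.656%, 1.11% and 0.342% of Rank-knockout replicates 1 to 4. The WT mean was 0.312% ± 0.120 and the Rank-knockout mean 0.779% ± 0.350 (SD over 4 libraries), a ratio of 2.50. Rank-knockout replicate 4 lay below WT replicates 1 and 2, so the genotypes overlapped. In these bulk samples, more Paneth cells, more granule RNA per Paneth cell and a larger crypt share of the sample cannot be told apart. None of these was tested.

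**Figure D1:**
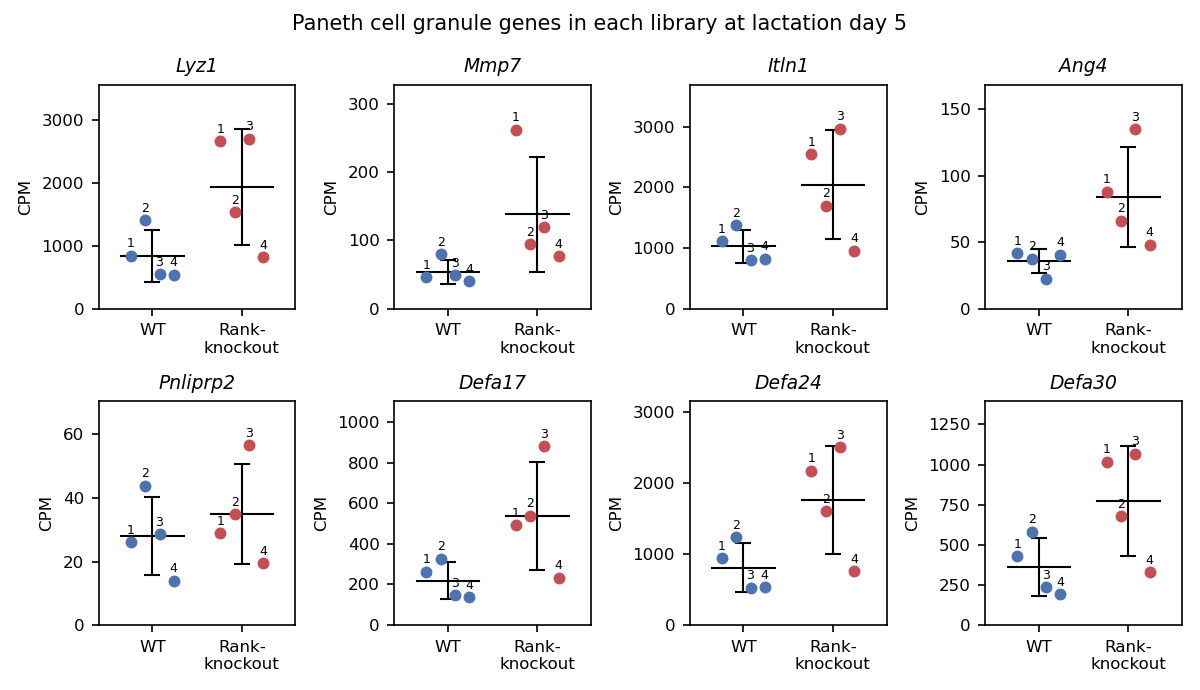
CPM of each of the 8 genes in WT (blue) and Rank-knockout (red) libraries; numbers are replicates, and the black lines are the mean and SD of 4 libraries. Axes start at 0. The genotypes do not overlap for Ang4 and overlap for the other 7 genes, where Rank-knockout replicate 4 lies within the WT range.

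Promoters are shown for the 3 genes that passed the test, on which the count of calls rests, and for Defa30, the 1 defensin among the members with a matched promoter. They are the 250 bases before the annotated start from RefSeq (GRCm38.p6), written 5′ to 3′ on the gene's strand. RefSeq promoters were matched for 6 of the 8 genes. Capitals mark matches, on either strand, to a TATA box (TATAAA), a TCF/LEF core (CTTTGA, the core bound by Wnt effectors), a CDX core (TTTATG) or a GATA core (AGATAA).
Mmp7 (chr9:7691840-7692089, plus strand): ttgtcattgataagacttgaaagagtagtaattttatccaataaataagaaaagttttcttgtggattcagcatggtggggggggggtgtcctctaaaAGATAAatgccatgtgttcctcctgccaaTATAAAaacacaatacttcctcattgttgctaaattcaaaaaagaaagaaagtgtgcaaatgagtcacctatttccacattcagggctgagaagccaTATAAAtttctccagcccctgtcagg
Itln1 (chr1:171535295-171535544, minus strand): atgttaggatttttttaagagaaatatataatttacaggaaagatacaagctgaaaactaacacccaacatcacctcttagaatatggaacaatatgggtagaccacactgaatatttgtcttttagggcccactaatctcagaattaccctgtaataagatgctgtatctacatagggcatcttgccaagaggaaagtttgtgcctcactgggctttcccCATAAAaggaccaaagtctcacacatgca
Ang4 (chr14:51773591-51773840, minus strand): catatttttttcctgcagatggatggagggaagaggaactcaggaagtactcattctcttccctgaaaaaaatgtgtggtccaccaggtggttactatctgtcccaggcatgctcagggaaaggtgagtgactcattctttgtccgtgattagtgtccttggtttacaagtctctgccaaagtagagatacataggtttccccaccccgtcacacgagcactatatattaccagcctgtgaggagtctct
Defa30 (chr8:21134400-21134649, plus strand): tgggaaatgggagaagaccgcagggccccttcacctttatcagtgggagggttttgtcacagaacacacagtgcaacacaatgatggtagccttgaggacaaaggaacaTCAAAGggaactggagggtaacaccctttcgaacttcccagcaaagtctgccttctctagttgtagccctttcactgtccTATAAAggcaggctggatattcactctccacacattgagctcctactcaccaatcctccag
In Mmp7 TATAAA occurred at 26 to 21 and at 123 to 118 bases before the start, and AGATAA at 152 to 147. A second RefSeq entry for Mmp7 (chr9:7692091-7692340) is not shown or counted here. It held the TCF/LEF core, on the opposite strand, at 246 to 241 bases before its start. The first bases after that start were found in no annotated Mmp7 transcript. Defa30 had TATAAA at 61 to 56 bases before the start and the TCF/LEF core, read from the opposite strand, at 141 to 136. Itln1 held the CDX core, on the opposite strand, at 29 to 24 bases before the start, and Ang4 held none of these letters. The other matched genes were Pnliprp2, with 1 TCF/LEF core, and Lyz1, with none. TATAAA and the TCF/LEF core were each found in 2 of the 6 promoters, against 12.4% and 13.8% of 32851 promoters of the same length. The CDX core and the GATA core were in 1 of the 6 each, against 10.8% and 9.99%. No matches overlapped in these sequences, and a match of letters is not evidence of binding.

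The bactericidal ribonuclease gene Ang4 (ENSMUSG00000060615; GRCm38 chromosome 14, 51763878 to 51773590, minus strand) separated the genotypes. Its levels were 41.8, 37.5, 22.5 and 40.6 CPM in WT replicates 1 to 4 and 87.9, 66.0, 134.9 and 48.0 CPM in Rank-knockout replicates 1 to 4. Every Rank-knockout library was above every WT library, a pattern that 14.4% of all genes tested showed. The genotypes differed by 1.22 on the log2 scale (SE 0.30; edgeR adjusted p = 0.00891), a fold of 2.34. Ang4 rested on 1375 counts in all, and stayed called when any 1 of the 8 libraries was left out, with log2 fold changes from 0.92 to 1.42. Its paralog Ang, a more broadly expressed ribonuclease, was at 4.80 to 10.9 CPM in WT and 6.06 to 14.8 CPM in Rank-knockout, with a log2 fold change of 0.29 (edgeR adjusted p = 0.543).

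Itln1 (ENSMUSG00000038209; chromosome 1, 171518122 to 171535294, minus strand), the intelectin gene, was the member with the most counts, 36206 in all. It was at 1109, 1371, 803 and 820 CPM in WT replicates 1 to 4 and at 2549, 1699, 2970 and 956 CPM in Rank-knockout replicates 1 to 4. Rank-knockout replicates 1, 2 and 3 were above all WT libraries, and replicate 4 lay between WT replicates 4 and 1. The difference of 0.99 on the log2 scale (SE 0.32) passed with an edgeR adjusted p of 0.0384. That call was lost without WT replicate 1, 3 or 4 or without Rank-knockout replicate 1 or 3, with edgeR adjusted p from 0.0644 to 0.13.

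Mmp7 (ENSMUSG00000018623; chromosome 9, 7692090 to 7699585, plus strand), whose product activates the defensins, was at 45.9, 79.3, 49.2 and 40.6 CPM in WT replicates 1 to 4. In Rank-knockout replicates 1 to 4 it was at 262.8, 94.6, 119.6 and 76.7 CPM. Only replicate 4 overlapped with WT, falling just under WT replicate 2, and replicate 1 was the highest. Its log2 fold change of 1.34 (SE 0.42) passed with an edgeR adjusted p of 0.0429, and was 0.81 without Rank-knockout replicate 1. The call was lost without WT replicate 1, 3 or 4 or without Rank-knockout replicate 3, without a filter on low counts, and after thinning to equal depth, with edgeR adjusted p from 0.0677 to 0.135.

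Lysozyme, the classical Paneth marker, did not pass the test. Lyz1 (ENSMUSG00000069515; chromosome 10, 117287797 to 117292868, minus strand) was at 841, 1414, 544 and 541 CPM in WT replicates 1 to 4 and at 2673, 1539, 2710 and 821 CPM in Rank-knockout replicates 1 to 4. Replicates 1 to 3 of Rank-knockout exceeded all WT libraries, while replicate 4 was below WT replicates 1 and 2. With a log2 fold change of 1.21 (SE 0.46), its edgeR adjusted p was 0.0838. Left out in turn, WT replicate 2 or Rank-knockout replicate 4 brought it past the threshold, with log2 fold changes of 1.58 and 1.46 and edgeR adjusted p of 0.0372 and 0.0124. Lyz2, the lysozyme of macrophages, had 87 counts over all libraries against 34257 for Lyz1.

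Pnliprp2 (ENSMUSG00000025091; chromosome 19, 58759719 to 58777534, plus strand), the lipase gene, had the smallest difference of the 8. Its levels were 26.0, 43.8, 28.7 and 14.0 CPM in WT replicates 1 to 4 and 28.9, 34.9, 56.7 and 19.5 CPM in Rank-knockout replicates 1 to 4. The ranges overlapped over most of their width, and the genotype difference was 0.23 on the log2 scale (SE 0.35; edgeR adjusted p = 0.664). Without WT replicate 4 it was -0.015, and without Rank-knockout replicate 3 it was -0.082. Set against lysozyme within each library, Pnliprp2 minus Lyz1 was -5.20 to -4.21 in log2 CPM in WT and -6.50 to -5.34 in Rank-knockout, without overlap. Of the 9854 genes tested other than Lyz1, 7.1% were lower relative to Lyz1 in every Rank-knockout library. The corresponding ranges of the other 6 genes overlapped between genotypes, and these differences between genes were not tested.

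**Figure D2:**
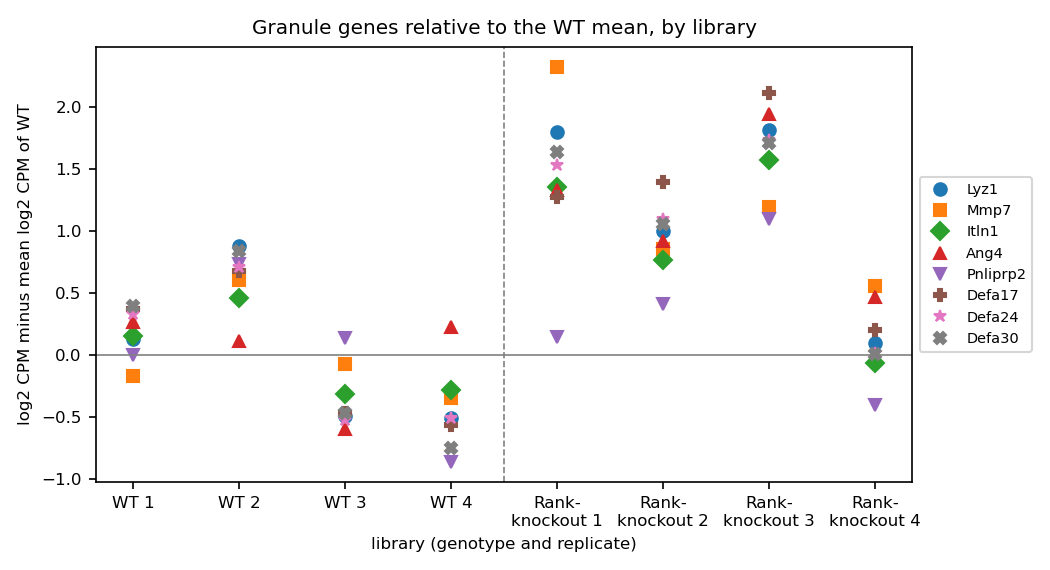
Log2 CPM of each granule gene minus its mean over the 4 WT libraries, by library. WT replicate 2 is highest among WT for 7 of the 8 genes, Rank-knockout replicate 3 is highest among Rank-knockout for 7 of 8, and Rank-knockout replicate 4 is lowest among Rank-knockout for 8 of 8.

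Within each genotype the 8 genes had a similar order of libraries. WT replicate 2 was the highest WT library for 7 of the 8 genes, with Ang4 the exception. The lowest WT library was replicate 4 for 5 genes and replicate 3 for 3. Among Rank-knockout libraries, replicate 4 was lowest for 8 of 8 genes, and replicate 3 was highest for 7, with Mmp7 the exception. Lyz1, Itln1, Defa24, Defa30 and Defa17 followed the mean of the other members with Pearson r from 0.97 to 0.99 over the 8 libraries, and Ang4, Mmp7 and Pnliprp2 with r of 0.85, 0.81 and 0.69. With genotype means removed these were 0.94 to 0.99, and 0.70, 0.63 and 0.75. Genes of 1 library share its depth and cell composition, so these values are descriptions.

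Defa24, Defa30 and Defa17 are alpha-defensin genes of chromosome 8. Defa24 (ENSMUSG00000064213; 21734494 to 21735471, plus strand) was at 948, 1235, 525 and 530 CPM in WT replicates 1 to 4 and at 2178, 1611, 2512 and 761 CPM in Rank-knockout replicates 1 to 4. Rank-knockout replicate 4 lay inside the WT range, and a log2 fold change of 1.12 (SE 0.42) did not pass (edgeR adjusted p = 0.0752).

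Defa30 (ENSMUSG00000074444; chromosome 8, 21134642 to 21135598, plus strand) was at 429, 583, 236 and 194 CPM in WT replicates 1 to 4. In Rank-knockout replicates 1 to 4 it was at 1019, 679, 1068 and 329 CPM, again with replicate 4 inside the WT range. The genotypes differed by 1.10 on the log2 scale (SE 0.47; edgeR adjusted p = 0.122). Defa17 (ENSMUSG00000060208; chromosome 8, 21655780 to 21656735, plus strand) was at 263, 326, 147 and 137 CPM in WT replicates 1 to 4 and 494, 538, 882 and 234 CPM in Rank-knockout replicates 1 to 4. A log2 fold change of 1.29 (SE 0.44) had an edgeR adjusted p of 0.0603, and here too replicate 4 was inside the WT range. Without Rank-knockout replicate 4 these 3 defensins passed the test, with log2 fold changes of 1.37 for Defa24, 1.35 for Defa30 and 1.54 for Defa17 and edgeR adjusted p of 0.00498, 0.0261 and 0.00708.

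**Figure D3:**
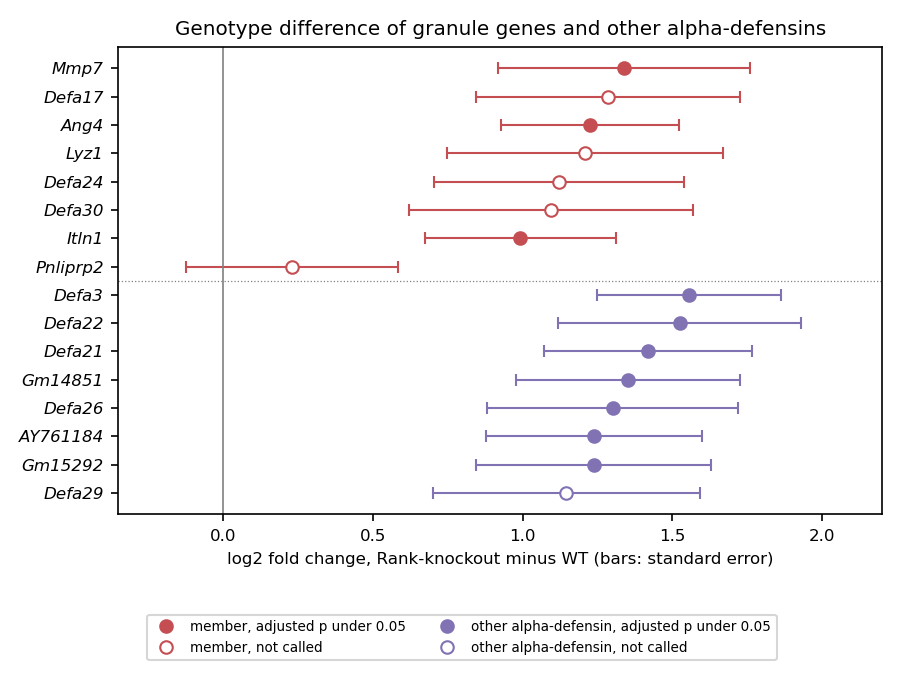
Log2 fold change (Rank-knockout minus WT) with SE, from edgeR on 4 libraries per genotype, for the 8 granule genes (red) and the other 8 alpha-defensins tested (purple). Filled points passed an adjusted p of 0.05. Pnliprp2 at 0.23 is the lowest, and the other 15 genes lie between 0.99 and 1.56.

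The wider alpha-defensin family was measured at 46 genes and pseudogenes, of which 23 had 0 counts in every library and 11 passed the filter on low counts. Of the 11, 7 were higher in Rank-knockout, against 15.8% of all genes tested, and none was lower. Their median log2 fold change was 1.29, and 3 lay higher in every Rank-knockout library than in any WT library, against 14.4% of all genes. The genes called were Defa3, Defa21, Defa22, Gm14851, Gm15292, AY761184 and Defa26. Defa22 and Gm15292 passed the filter only through Rank-knockout, where all 4 libraries reached its minimum of 4.30 CPM, against 2 and 1 of the WT libraries, so a difference in that direction was a condition of their being tested. Of the other 9, 5 were higher and 2 did not overlap. Defa3 had the largest log2 fold change, 1.56 (SE 0.31; edgeR adjusted p = 0.00325), from 29.2 CPM in WT to 87.9 CPM in Rank-knockout, and Defa21 had 1.42 (SE 0.35; 0.00672). Defa29 (1.15; edgeR adjusted p = 0.0785) and the 3 members did not pass. Family genes with 10 or more counts that were filtered out were Gm15293 with 78 counts, Defa-ps18 and Defa34 with 23 each, Defa-ps6 with 19 and Defa28 with 16. The family took 0.155% ± 0.0621 of all counts in WT libraries and 0.402% ± 0.177 of those in Rank-knockout libraries (SD over 4 libraries). Summed to 1 row, which does not depend on how reads were divided among its genes, the family had a log2 fold change of 1.18 (SE 0.40). If reads matching several genes were discarded, which is not given, the sum and these shares lack the reads that copies have in common.

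Near-identical copies limit what the single defensin values can say. Reads were 50 bases long and came from the 3′ end, so every 50-base window in the last 300 bases of each transcript was looked up in all GENCODE M21 transcripts. All windows of Itln1, Mmp7 and Pnliprp2 were found in no other gene, as were 87.6% of those of Ang4 and 78.1% of those of Lyz1, whose shared windows lay in Lyz2 in 55 cases. For Defa24 the share was 72.5% and for Defa30 58.2%. Defa17 had 11.2%, and 223 of its 251 windows were identical in Defa3, so the values of Defa17 and Defa3 are uncertain. Among family genes with 0 counts the median share was 4.38%, with 10 of 23 having no window of their own, and among the 11 tested it was 58.2%. A count of 0 for such a copy is therefore no measure of its expression.

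**Figure D4:**
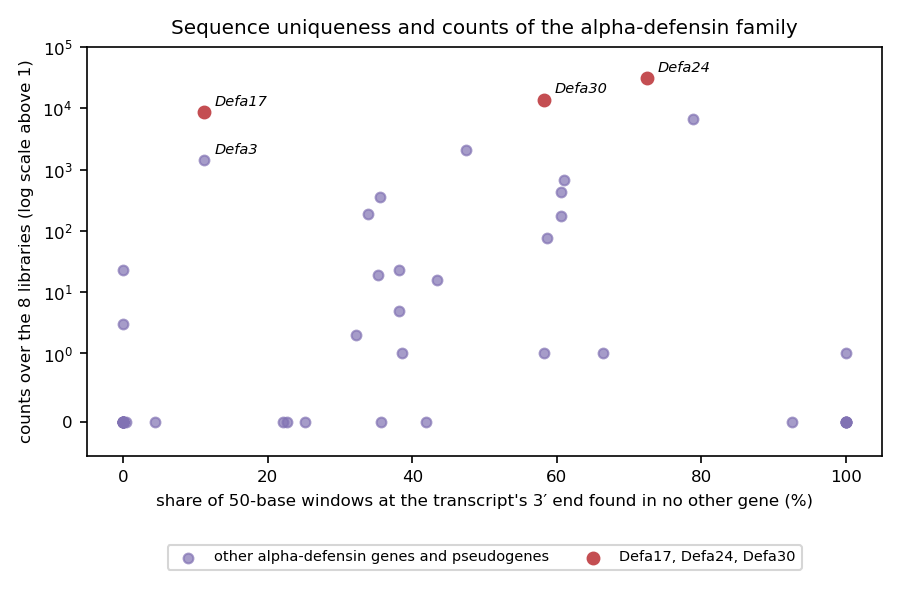
Share of 50-base windows in the last 300 bases of each alpha-defensin transcript that occur in no other gene (x, %) against counts summed over the 8 libraries (y, log scale above 1). Defa24 and Defa30 lie at 72.5% and 58.2%; Defa17 and Defa3 both lie at 11.2%, and 10 genes at 0 counts have no window of their own.

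Other secreted products of Paneth cells were mixed. Of 14 genes listed, 11 were tested, with 3 higher, 1 lower and a median log2 fold change of 0.40. This median was the value of Reg3g, whose SE was 1.38. Dropping WT replicate 3 gave a median of 0.996, and dropping Rank-knockout replicate 4, 2 or 1 gave 0.75, 0.66 or 0.27, while scaling by library totals gave 0.64. Spink4, a protease inhibitor that goblet cells also make, had 1.03 (SE 0.19; edgeR adjusted p = 0.00127) and Dmbt1, a mucosal scavenger protein, 1.17. Pla2g2a, a phospholipase gene, had 1.18 (edgeR adjusted p = 0.0485) on 382 counts, with overlapping ranges. The C-type lectin gene Reg3a was lower, at 199.1 ± 60.7 CPM in WT against 112.1 ± 33.8 CPM in Rank-knockout (SD, n = 4 each), with a log2 fold change of -0.83. Mptx2, a mucosal pentraxin of Paneth cells, had 1.53 but did not pass (edgeR adjusted p = 0.106). It was at 42.8 to 95.6 CPM in WT, at 389 CPM in Rank-knockout replicate 1 and at 93.1 to 100.3 CPM in the other 3 Rank-knockout libraries.

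Genes for making and releasing granules showed no shared direction. Of 16 tested of 21 listed, 2 were higher, 2 were lower and the median log2 fold change was -0.04. Agr2, a disulfide isomerase of secretory cells, had 0.85 and Kcnn4, a potassium channel linked to granule release, 0.82. Slc30a2, a zinc transporter of Paneth granules, was lower at -0.72 (SE 0.15; edgeR adjusted p = 0.00206), with 85.4 to 107.7 CPM in WT and 50.5 to 58.5 CPM in Rank-knockout. Stx3, a membrane fusion protein that enterocytes also express, had -0.68. The sign of the list's median was positive under library totals, at 0.16, and with the 50 most abundant genes left out of the library size, at 0.09, and the median was -0.26 after thinning to equal depth.

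Among genes of Paneth cell fate and surface, 14 of 16 were tested, 7 were higher and 1 was lower, with a median of 0.51 (0.86 without Rank-knockout replicate 4). Mex3a, 1 of the 7, passed the filter only through Rank-knockout, where all libraries reached its minimum of 4.30 CPM. WT replicates 2 and 4, with 15 and 5 counts, did not. Ephb2, a receptor that positions crypt cells, had 1.01, Hes1, a Notch target, 1.29, and Sox9, a transcription factor needed for Paneth cells, 1.06. The study counts Ephb2 among stem cell genes, so a rise in this list is not particular to Paneth cells. Cd24a, a surface marker used to sort Paneth cells, had 0.83. The single fall was Tcf7l2, a Wnt effector named here after its value was seen, at -0.43. The secretory fate factors Atoh1, Gfi1 and Spdef had 0.19, 0.01 and 0.31 and were not called. Of 8 niche ligands 4 were tested, and Wnt3 was higher at 1.34 (SE 0.34; edgeR adjusted p = 0.00809), from 2.05 to 6.84 CPM in WT to 9.23 to 17.0 CPM in Rank-knockout. Wnt3 too passed the filter only through Rank-knockout, where all libraries reached the minimum of 4.30 CPM. WT replicates 3 and 4, with 3 and 5 counts, did not, so a difference in that direction was a condition of its being tested. The Notch ligand Dll1 was at -0.53 (edgeR adjusted p = 0.202) and the list's median was -0.25, ranging from -0.44 to -0.08 with 1 library left out.

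The genes most like the 8 in their levels over libraries were ranked by Pearson r with the members' mean standardised log2 CPM. They were Foxa3 (r = 0.98), 2810004N23Rik, AY761184, Ddx10, Naf1, Ddx27, Usp1, Msh6, Bysl and Rexo2, with r of at least 0.97 over 8 libraries, and from 0.94 to 0.98 with genotype means removed. AY761184 is a defensin gene, Foxa3 encodes a transcription factor of secretory cells, Ddx10 and Ddx27 encode RNA helicases, and Msh6 acts in mismatch repair. The rank was taken over all genes tested other than the members.

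Crypt and villus markers also differed between the genotypes. Of 18 tested replication and cell cycle genes 18 were higher, with a median of 1.19, and summed levels of 582 to 959 CPM in WT and 1378 to 2363 CPM in Rank-knockout. Those with the smallest p were Aurka, a mitotic kinase gene, at 1.33 and Ccna2, a cyclin gene, at 1.74. Of 11 crypt base and stem cell genes 7 were higher and 1, Sp5, was lower, with a median of 1.01 (Sp5 at -1.26, Smoc2 at 1.30) and sums of 580 to 880 and 820 to 1830 CPM. Of 16 villus enterocyte genes 15 were lower, with a median of -1.11 and sums from 35680 to 47976 CPM in WT and 16253 to 22756 CPM in Rank-knockout. The brush border hydrolase genes Treh and Mme were at -1.39 and -1.38. Rank-knockout replicate 4, lowest in the granule genes, was also the lowest Rank-knockout library for the cell cycle sum and the crypt base sum and the highest for the villus sum. The part of crypt and villus composition in the granule gene values was not tested.

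Goblet cell markers, from the other main secretory cell, had a median of 0.27 over 13 tested genes, with 4 higher and 4 lower. Dropping Rank-knockout replicate 3, 2 or 4 gave medians of 0.07, 0.10 or 0.42, dropping WT replicate 1 gave 0.17, and scaling by library totals gave 0.47. The 4 higher were Agr2 and Galnt12, with the smallest p, at 0.85 and 0.83, and Spink4 and Ccl9, at 1.03 and 1.52. The 4 lower were all defining goblet markers, Zg16 (-0.91), Clca1 (-0.67), Fcgbp (-0.64) and the mucin gene Muc2 (-0.58). Another defining marker, Tff3, was at -0.30 and not called. The goblet sum was 13406 to 17839 CPM in WT and 7909 to 10711 CPM in Rank-knockout. Zg16 alone made up 8830 to 12415 CPM of the WT sums and 4253 to 6240 CPM of the Rank-knockout sums. Of the segment markers tested, 3 of 9 proximal genes and 4 of 6 ileal genes were lower, with medians of -0.64 and -0.83. The ileal gene Fabp6, a bile acid carrier with 98 counts in all, did not pass the filter on low counts. In the edgeR fit without a filter it was higher, with a difference of 2.002 on the log2 scale (SE 0.49) and an adjusted p of 0.000695, from 0.666 to 2.28 CPM in WT to 3.38 to 9.76 CPM in Rank-knockout. Lct (-1.35) and Cyp2b10 (-1.38) had the smallest p of the proximal genes, and Clec2h (-1.04) and Mep1b (-1.07) of the ileal ones. Pancreatic acinar genes, listed because Pnliprp2 is also made there, were at 0 in 16 of 29 cases, Cela2a, Cpa1 and Cel among them. The 26 not tested summed to 2.05 to 6.08 CPM in WT and 2.64 to 4.88 CPM in Rank-knockout. Of the 3 acinar-listed genes tested, Zg16 was lower at -0.91, and Clps and Rnase1 were not called, with 0.61 and 0.26. Zg16 is also a goblet marker.

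None of 19 neutrophil and macrophage genes passed the filter, with S100a9, Elane and Adgre1 at 0 and a summed level of 14.3 to 30.8 CPM in WT and 9.75 to 25.1 CPM in Rank-knockout. Of 7 T cell genes tested none was called in either direction (median -0.39; sums 236 to 361 and 164 to 271 CPM), with Gzma at -0.45 and Ptprc at -0.74. Of 3 plasma cell genes tested Igkc was lower, at -1.90, and Igha at -1.49 and Sdc1 at 0.19 were not called (sums 158 to 267 and 137 to 171 CPM). Sdc1, which epithelial cells also express, made up 90.5 to 113.0 CPM of the WT sums and 91.6 to 132.0 CPM of the Rank-knockout sums. The 1 stromal gene tested, Vim, was at -0.10, and the stromal list summed to 9.98 to 18.2 CPM in WT and 5.85 to 19.9 CPM in Rank-knockout. The part of these cells in the granule gene values was not tested.

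**Figure D5:**
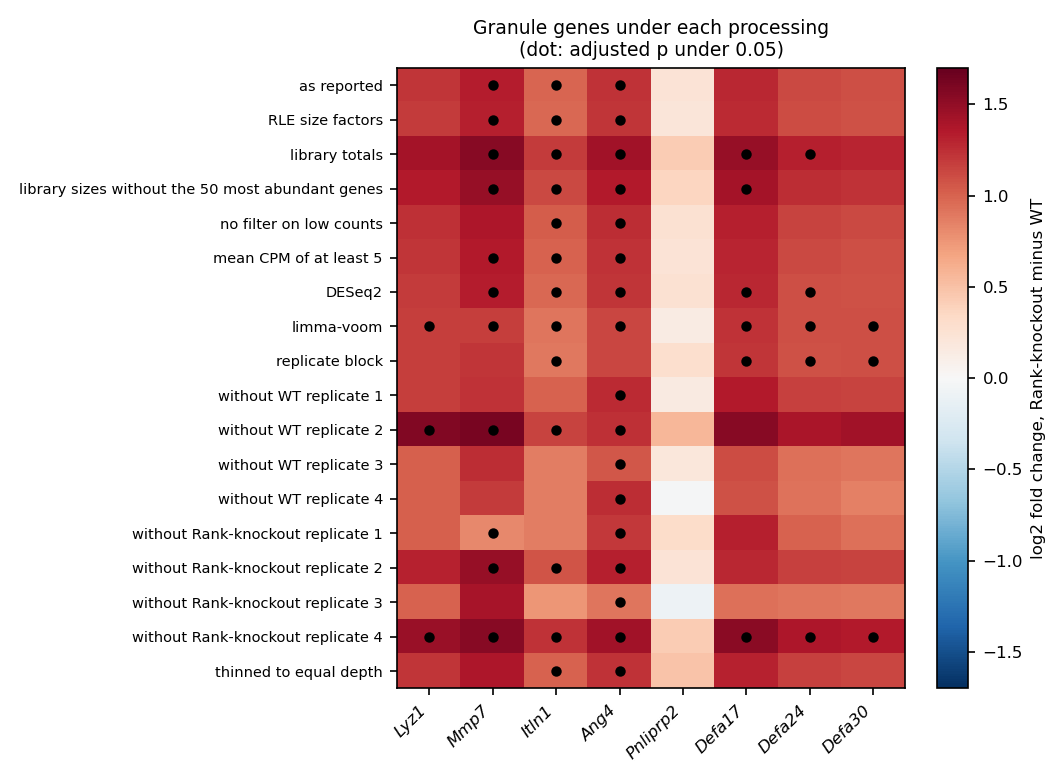
Log2 fold change (colour; Rank-knockout minus WT) of the 8 granule genes under each way of processing, with a dot where the adjusted p was under 0.05. Ang4 carries a dot under every processing but the replicate block, Pnliprp2 under none, and the number of dots per line runs from 1 to 7.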

How the data were processed

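RNA from intestinal epithelial cells of 4 WT and 4 Rank-knockout mice was made into 3′ mRNA-seq libraries, in which tags come from the 3′ end and CPM needs no division by transcript length. According to the methods of the study, reads were trimmed by the authors with BBDuk, cleared of abundant sequences with bowtie2, aligned to GRCm38 (mm10) with STAR, and assigned to genes by featureCounts, using strand. The authors deposited the raw counts, not normalized. How reads matching several genes were treated, and any molecular identifiers, are not given in the sources used here.

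Gene identifiers were matched to symbols with GENCODE M21, and 54409 of 54532 were found. The genotype test was that of edgeR 4.0.16 under R 4.3.3 (filterByExpr, TMM, robust quasi-likelihood F-test, genotype only, Benjamini-Hochberg over 9855 genes, threshold 0.05). The test was checked on simulated data. Correlations used log2 CPM with a prior count of 2. The members and gene lists were chosen with earlier results of these data known. Named were the members, alpha-defensins with 10 or more counts, up to 4 called genes with the smallest p of each Paneth list plus its defining genes, 2 genes with the smallest p of each other marker list plus defining markers, and the 10 genes most like the members.

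Other fits used DESeq2 1.42.0, limma-voom (3.58.1), RLE scaling, scaling by library totals with and without the 50 most abundant genes, another filter (none, or mean CPM 5 and over), the replicate number as a block, each library left out, and, chosen after seeing the data, thinning to the shallowest library. No library duplicated another. Lists tested were the alpha-defensin family, paralogs, other secreted products, granule machinery, niche ligands, fate and surface, goblet, crypt base, cell cycle, villus, acinar, myeloid, T cell, plasma cell, stromal, proximal and ileal genes.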

Additional observations from a re-analysis of the deposited data

Results flagged for a closer look

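In 5 of 56 sets of 4 libraries examined (the granule genes, the tested alpha-defensins, other Paneth secreted products and total counts, in each genotype) 1 library lay far from the other 3; chance gives 2.8 such sets. Mptx2 was at 389 CPM in Rank-knockout replicate 1, against 93.1 to 100.3 CPM in the others. In the same library Reg3b was at 8268 CPM against 166 to 256 CPM, and Reg3g at 3291 CPM against 95.3 to 156 CPM. Reg3a was at 290 CPM in WT replicate 4 and at 163 to 178 CPM in the other WT libraries. WT replicate 2 held 4335653 counts and the other WT libraries 1530781 to 1616024. No granule gene among the 8 was picked out in this way.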

How the results depend on the processing

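The number of granule genes called higher was 3, and 5 with library totals, 5 with DESeq2, 7 with limma-voom and 1 to 7 with a library left out (7 when Rank-knockout replicate 4 was dropped, and 1, Ang4, when WT replicate 1, 3 or 4, or replicate 3 of Rank-knockout, was dropped). None was lower under any of these. Defa17 passed the test with library totals (1.48), without the 50 most abundant genes in the library size (1.41), with DESeq2 (1.28) and limma-voom (1.23). Defa24 passed with library totals (1.32), DESeq2 (1.10) and limma-voom (1.09), and Lyz1 (1.18) and Defa30 (1.10) with limma-voom. Mmp7 lost its call without a filter on low counts (1.37) and after thinning (1.38). Library totals moved the median of all genes by 0.20 and gave 2566 genes higher and 859 lower, against 1555 and 1438. The genes called higher over the whole table numbered 1020 to 1723 and those called lower 1097 to 1564 with a library left out; the lowest count of higher genes, 1020, was without WT replicate 4. With a library left out, log2 fold changes ran from 1.004 to 1.58 for Lyz1, 0.81 to 1.61 for Mmp7, 0.76 to 1.23 for Itln1, 0.92 to 1.42 for Ang4, -0.082 to 0.57 for Pnliprp2, 0.94 to 1.55 for Defa17, 0.90 to 1.39 for Defa24 and 0.85 to 1.42 for Defa30. Pnliprp2 turned negative when WT replicate 4 (-0.015) or Rank-knockout replicate 3 (-0.082) was dropped. The causes of these changes were not tested.

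With the replicate number as a replicate block, Mmp7 (1.21) and Ang4 (1.13, edgeR adjusted p = 0.0533) no longer passed, and Defa17 (1.22), Defa24 (1.08) and Defa30 (1.09) did, so 4 members were called. The numbers are not shown to pair the animals: same-numbered libraries correlated over 0.1 in 2 of 4 cases (r from -0.14 to 0.32), and 4 of 8 libraries correlated best with their own number.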
